A study of Mus musculus with 23 samples.

Results

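The epidermal growth factor (EGF) family was followed in mouse skin and skin wounds as 9 genes of the deposited count table. They are the ligands Areg, Ereg, Hbegf, Tgfa, Epgn and Btc and the receptors Egfr, Erbb2 and Erbb3. Members were chosen by gene symbol, 10 in all, and 9 were among the 56379 genes of the table; Nrg1 was not analysed here. All 9 passed the filter on low counts that left 23083 genes for testing. All mice were HTNF ki/ki Lepr db/db, that is, they carried human tumour necrosis factor (TNF) as a knock-in and lacked a working leptin receptor, which makes them obese and diabetic. They were 8 to 12 weeks old. Each had its back shaved and treated with a depilation cream, received 4 full-thickness wounds of 6 mm under a film dressing and was given tramadol. Tissue was taken with an 8 mm punch, so that wound samples hold a rim of skin. Control mice were given the vehicle, PBS. The other mice were given 20 mg/kg of adalimumab, an antibody against human TNF, under the skin, with doses on days 0, 3, 7 and 10. RNA was sequenced from skin on day 0 and from wounds on days 3, 7 and 10. Whether day 0 skin was taken before the dose of that day was not stated. Each of the 8 groups had 3 libraries, except adalimumab day 10 with 2. There was no group of mice with working leptin receptors or without wounds at the later days.

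EGF family ligands are made as membrane proteins, and proteases of the ADAM family cut them free. The soluble ligands bind EGFR or, for the neuregulins, ERBB3 and ERBB4. Bound receptors pair up and signal through RAS and the MAP kinases, and ERBB2, which has no ligand of its own, serves as the partner of the others. In skin the family is known for driving keratinocytes to divide and to migrate over a wound, and for acting as a signal that keratinocytes send to themselves.

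Total counts ran from 33080930 to 37494760 per library. All libraries of days 0 and 3 held Xist, the transcript of the inactive X chromosome in females, and those of days 7 and 10 held the Y-linked Ddx3y, except adalimumab day 7 replicate 3. Day 7 or 10 against day 0 therefore also compares mice of different sex, and the 2 cannot be told apart. Days 0 and 3 come from the same mice by their numbers in the table. Adalimumab day 0 replicates 2 and 3 held transcripts of growing hair follicles at 2469 and 16941 summed CPM (counts scaled to library size), against 14.6 in replicate 1 and 5.54 to 28.0 in control day 0. Adalimumab day 3 replicate 1 stood apart by its low keratinocyte transcripts: genes of wound-edge keratinocytes (Krt6a, Krt6b, Krt16 and Krt17) summed to 1.30 CPM there, against 2569 and 3162 CPM in replicates 2 and 3. Its 6 basal keratinocyte genes (Krt5, Krt14 and others) summed to 196 CPM, against 4590 and 5155 CPM. Control day 0 replicate 2 held the highest level of all 6 ligands in its group.

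The question of how the family changes from intact skin to wound was addressed by comparing each later day with day 0 in each arm. Differences are log2 differences ± SE from the quasi-likelihood test of edgeR, with p-values adjusted by Benjamini and Hochberg over all genes tested and a threshold of 0.05. In control wounds, Btc and Erbb2 fell on day 3, Btc, Erbb2 and Erbb3 on day 7 and Btc and Erbb2 on day 10. No member rose at any of these days. Of all genes tested in the control arm, 17.1% fell and 17.5% rose on day 3, 17% and 16.4% on day 7, and 18.2% and 16.2% on day 10. In adalimumab wounds, Erbb2 fell and Hbegf rose on day 3 and Erbb2 fell on day 7, while 9.54% of all genes fell and 11.9% rose on day 3, and 17.9% and 14.6% on day 7. No member passed on day 10, against 14.4% of all genes in edgeR and 4734 of 23083 genes in DESeq2. In edgeR, 1 of 9 members, against 31.5% of all genes, had an unadjusted p under 0.05. The median log2 difference of the 9 members was -1.37 on day 3, -1.18 on day 7 and -1.17 on day 10 in control, against -0.02, -0.01 and -0.01 over all genes. In adalimumab it was -0.44, -0.91 and -0.07, against -0.06, -0.10 and -0.16. The 3 comparisons of an arm share its day 0 libraries, so their values are set side by side and are not independent. The main fit did not pair day 3 with day 0 by mouse.

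**Figure D1:**
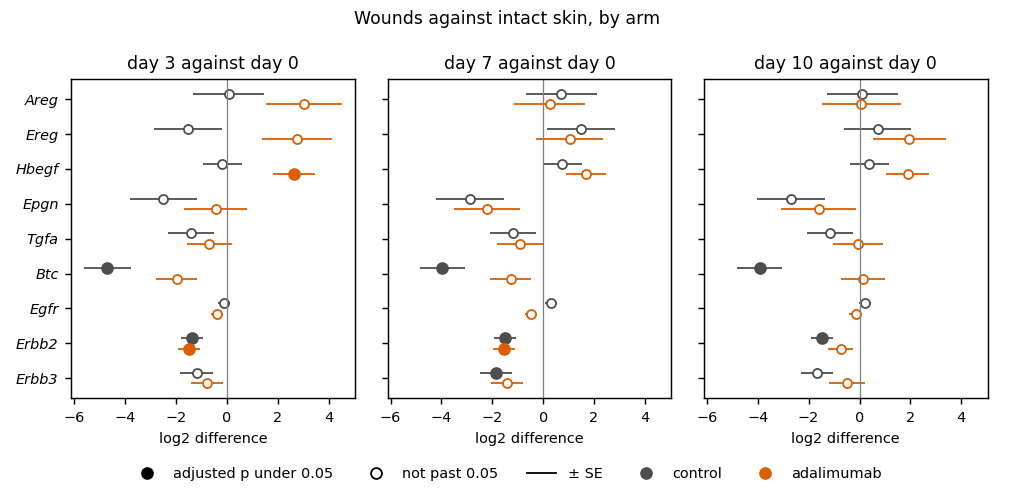
Log2 differences of the 9 members from day 0, with SE, for control and adalimumab wounds on days 3, 7 and 10; filled circles passed the threshold. Btc in control lies lowest, from -4.69 to -3.93, and the points of Areg, Ereg and Epgn carry SE above 1.

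Betacellulin (Btc), a ligand that binds EGFR and ERBB4, had the largest fall of the 9 members in control wounds. Control day 0 skin held 10.3, 68.7 and 7.21 CPM. Control wounds held 0.907, 1.91 and 0.501 CPM on day 3, 2.65, 0.808 and 2.03 CPM on day 7, and 2.10, 1.44 and 2.11 CPM on day 10. Every control wound library lay under every control day 0 library, as was true of 25.4%, 26.6% and 27.5% of all genes on days 3, 7 and 10. In the same mouse, Btc was 11.4, 36.0 and 14.4 times lower on day 3 than on day 0. The log2 difference was -4.69 ± 0.91 on day 3 (adjusted p = 0.00102), -3.97 ± 0.88 on day 7 (adjusted p = 0.00278) and -3.93 ± 0.88 on day 10 (adjusted p = 0.00283). The size of this fall rested in part on the high value of control day 0 replicate 2: without it the differences of Btc were -2.95, -2.21 and -2.17, and all 3 still passed. Adalimumab skin held 10.1, 24.5 and 18.6 CPM of Btc on day 0, and the wounds held 6.55, 3.40 and 3.64 CPM on day 3. Adalimumab wounds held 1.08, 10.6 and 10.2 CPM on day 7, and 15.3 and 23.5 CPM on day 10. Day 3 values of Btc lay under all of day 0, as did those of 18.4% of all genes (log2 difference -1.97 ± 0.81, adjusted p = 0.0887), and day 10 values lay within the range of day 0 (0.13 ± 0.86, adjusted p = 0.941). Btc was the scarcest member relative to gene length, with a median of 0.806 CPM per kb over the 23 libraries.

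Epgn, Ereg, Areg and Btc are 4 consecutive protein-coding genes on mouse chromosome 5. Promoter sequences are shown for Btc and Erbb2, which fell in control wounds on all 3 days, and for Areg, the single member with a match to a searched motif. Each is the 250 bases before the gene start, 5′ to 3′ on the strand of the gene, from RefSeq on GRCm38.p6, which is an older build than the GRCm39 of the counts. They lie at chr5:91402995-91403244 on the minus strand, chr11:98412234-98412483 on the plus strand and chr5:91139349-91139598 on the plus strand. Capitals mark the cyclic AMP response element (CRE).
Btc: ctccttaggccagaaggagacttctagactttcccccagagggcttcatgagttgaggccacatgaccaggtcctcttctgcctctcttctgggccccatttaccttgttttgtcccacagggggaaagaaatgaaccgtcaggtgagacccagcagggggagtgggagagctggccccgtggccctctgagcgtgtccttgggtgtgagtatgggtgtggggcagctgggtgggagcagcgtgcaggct
Erbb2: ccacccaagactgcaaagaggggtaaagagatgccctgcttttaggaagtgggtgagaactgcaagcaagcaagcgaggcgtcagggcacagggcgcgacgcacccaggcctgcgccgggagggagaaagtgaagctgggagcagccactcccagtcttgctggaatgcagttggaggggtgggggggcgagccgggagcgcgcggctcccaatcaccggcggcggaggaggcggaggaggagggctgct
Areg: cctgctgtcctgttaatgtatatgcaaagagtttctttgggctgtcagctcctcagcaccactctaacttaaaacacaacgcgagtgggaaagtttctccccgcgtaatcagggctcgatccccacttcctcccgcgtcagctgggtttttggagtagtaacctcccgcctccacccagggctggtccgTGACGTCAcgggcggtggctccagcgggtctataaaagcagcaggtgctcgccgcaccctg
Matches were sought on both strands to AP-1 (TGANTCA), CRE (TGACGTCA) and NF-kB. Of the 9 members, 6 had an entry (Epgn, Areg, Btc, Tgfa, Egfr and Erbb2). The CRE of Areg, 61 to 54 bases before the start, was the only match, and it overlapped no other motif. Among 32851 promoter windows of that length, 1.55% held a CRE, 6.75% an AP-1 match and 7.25% an NF-kB match. A match describes letters in the window and does not show a bound site.

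Amphiregulin (Areg), epiregulin (Ereg) and heparin-binding EGF (Hbegf) are ligands of EGFR that cells switch on rapidly when stimulated. Their spread between mice of a group was wide. Areg stood at 0.331, 17.1 and 0.670 CPM in control skin on day 0, and control wounds held 3.07, 12.3 and 3.64 CPM on day 3. It stood at 2.39, 19.3 and 8.13 CPM on day 7 and at 2.35, 1.85 and 15.3 CPM on day 10. In adalimumab Areg was 0.247, 3.64 and 7.72 CPM on day 0, 1.19, 79.5 and 14.5 CPM on day 3, 1.75, 5.88 and 6.27 CPM on day 7, and 3.07 and 5.09 CPM on day 10. The groups overlapped at every day, and within-group ranges reached 66.8-fold in adalimumab day 3. Its log2 difference from day 0 was 0.07 ± 1.39 in control (adjusted p = 0.98) and 3.03 ± 1.49 in adalimumab (adjusted p = 0.157) on day 3. Both rested on single libraries: Areg differed by 3.70 in control without control day 0 replicate 2 and by 1.02 in adalimumab without adalimumab day 3 replicate 2.

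Ereg had a similar spread. In control it was 3.75, 44.1 and 3.59 CPM on day 0, 9.95, 4.28 and 3.70 CPM on day 3, 5.90, 116 and 23.8 CPM on day 7, and 8.47, 6.99 and 69.1 CPM on day 10. In adalimumab it was 4.03, 9.74 and 10.8 CPM on day 0, 5.03, 157 and 4.59 CPM on day 3, 4.42, 20.0 and 26.4 CPM on day 7, and 23.3 and 40.6 CPM on day 10. A single library was far above the others of its group on control day 0, control day 7, control day 10 and adalimumab day 3. Both adalimumab day 10 libraries lay above all of adalimumab day 0 (log2 difference 1.96 ± 1.45, adjusted p = 0.373). There, 25.5% of all genes had both wound libraries above day 0.

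Hbegf was the single ligand that rose in any comparison. In control skin on day 0 it stood at 6.23, 39.4 and 4.51 CPM, and control wounds held 14.7, 21.2 and 8.26 CPM on day 3. Control wounds held 20.3, 39.4 and 25.0 CPM on day 7 and 15.0, 12.8 and 38.1 CPM on day 10. All of these groups overlapped control day 0, and the differences of Hbegf were -0.19 ± 0.76, 0.76 ± 0.77 and 0.39 ± 0.76 (adjusted p = 0.874, 0.468 and 0.721). They rested on control day 0 replicate 2: without it Hbegf passed on day 7 (2.45, adjusted p = 0.0242) and day 10 (2.08, adjusted p = 0.0453). On day 3 it then differed by 1.49, without passing. In the same control mouse, Hbegf on day 3 was 2.35, 0.537 and 1.83 times its day 0 level. Adalimumab skin held 7.95, 5.49 and 7.05 CPM on day 0, and adalimumab wounds held 8.98, 94.3 and 24.3 CPM on day 3. On day 7 they held 11.5, 26.7 and 27.3 CPM and on day 10, 24.1 and 26.7 CPM. Every adalimumab wound library lay above every adalimumab day 0 library, which held for 15.5%, 18.4% and 25.5% of all genes on days 3, 7 and 10. In the same mouse Hbegf was 1.13, 17.2 and 3.45 times higher on day 3. The log2 difference was 2.64 ± 0.81 on day 3 (adjusted p = 0.0274), 1.68 ± 0.79 on day 7 (adjusted p = 0.11) and 1.90 ± 0.85 on day 10 (adjusted p = 0.135). Adalimumab day 3 against day 0 was also fitted to those libraries alone with the mouse as a block. There 0 of 9 members and 975 of 19917 genes passed, and Hbegf differed by 2.04 (adjusted p = 0.229). The call of Hbegf on day 3 also ended without adalimumab day 3 replicate 2 (1.29, adjusted p = 0.251), day 0 replicate 1 (adjusted p = 0.0562), replicate 2 (adjusted p = 0.0938) or replicate 3 (adjusted p = 0.083). Without both hair-rich day 0 libraries, which left a single day 0 library in that arm, Hbegf differed by 2.45. Neutrophil transcripts, led by S100a8 and S100a9, moved in the same libraries: the 5 markers summed to 17.2 to 35.0 CPM in adalimumab day 0 and 193 to 2061 CPM in adalimumab day 3. All 5 rose, and their part in the Hbegf difference was not tested.

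**Figure D2:**
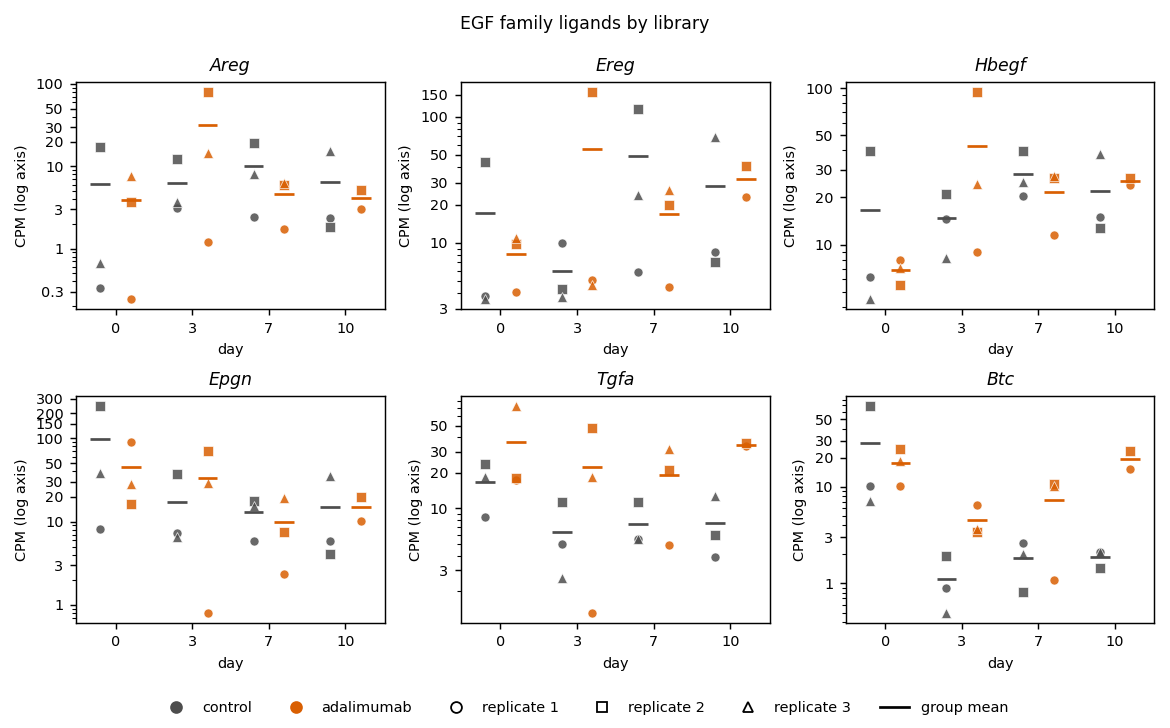
CPM of the 6 ligands in each of the 23 libraries on a log axis, by day and arm; points are libraries, shapes are replicates and bars are group means. Single libraries reach 79.5 CPM for Areg, 157 CPM for Ereg and 94.3 CPM for Hbegf in adalimumab day 3, whereas Btc lies at or under 2.65 CPM in all control wounds.

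Epigen (Epgn) and transforming growth factor alpha (Tgfa) are EGFR ligands known from the epidermis and hair follicle. Epgn stood at 8.18, 244 and 38.1 CPM in control skin on day 0, and at 7.29, 37.4 and 6.59 CPM on day 3. It was 5.84 to 17.9 CPM on control day 7 and 4.13 to 35.0 CPM on control day 10. In adalimumab it ranged from 16.4 to 90.5 CPM on day 0, from 0.812 to 69.5 CPM on day 3, from 2.35 to 19.4 CPM on day 7 and from 10.1 to 19.6 CPM on day 10. No difference of Epgn from day 0 passed: control gave -2.50 ± 1.32, -2.89 ± 1.34 and -2.69 ± 1.33 (adjusted p = 0.15, 0.104 and 0.123), and day 0 overlapped each wound group. Without control day 0 replicate 2 the differences of Epgn were -0.40, -0.76 and -0.57. Its lowest value, 0.812 CPM, was in adalimumab day 3 replicate 1, the library low in keratinocyte transcripts. Tgfa was lower on day 3 than on day 0 in 3 of 3 control mice, with 8.43, 23.6 and 18.4 CPM against 5.03, 11.3 and 2.61 CPM. Control wounds held 5.53, 11.3 and 5.52 CPM of Tgfa on day 7 and 3.87, 5.93 and 12.6 CPM on day 10. The differences of Tgfa were -1.41 ± 0.91, -1.18 ± 0.90 and -1.17 ± 0.90 (adjusted p = 0.241, 0.33 and 0.329). Adalimumab held 17.5, 18.0 and 73.1 CPM of Tgfa on day 0, 1.33, 47.9 and 18.4 CPM on day 3, 4.96, 20.9 and 32.0 CPM on day 7, and 33.3 and 35.8 CPM on day 10. Its highest value was in the day 0 library richest in hair follicle transcripts, as were those of Egfr, Erbb2 and Erbb3.

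Egfr, the receptor of all 6 ligands, was the steadiest member. Its group means lay between 118 ± 34.6 CPM (SD, n = 3, control day 3) and 182 ± 35.1 CPM (SD, n = 3, adalimumab day 0). Control skin held 124, 146 and 118 CPM on day 0, and control wounds held 157, 91.3 and 107 CPM on day 3, 156, 164 and 164 CPM on day 7, and 144, 171 and 137 CPM on day 10. All 3 control day 7 libraries lay above control day 0 (log2 difference 0.32 ± 0.23, adjusted p = 0.298), where 24.5% of all genes had groups apart in that direction. Adalimumab held 143, 193 and 210 CPM on day 0, 116, 196 and 105 CPM on day 3, 119, 116 and 152 CPM on day 7, and 176 and 152 CPM on day 10. No difference of Egfr from day 0 passed in either arm, and the differences ran from -0.50 ± 0.23 (adalimumab day 7, adjusted p = 0.111) to 0.32. Without adalimumab day 3 replicate 2, Egfr fell on day 3 in that arm (-0.72, adjusted p = 0.0353). Per length Egfr was the most abundant member, with a median of 12.9 CPM per kb and a range of 8.06 to 18.6.

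Erbb2, the receptor that pairs with the others, fell at every control day and on days 3 and 7 with adalimumab. Control skin held 41.5, 59.8 and 53.2 CPM on day 0, against 15.0, 31.9 and 12.8 CPM on day 3, 15.4, 24.4 and 15.5 CPM on day 7, and 16.5, 15.6 and 23.9 CPM on day 10. No control wound library reached the lowest value of control day 0, as was true of 25.4%, 26.6% and 27.5% of all genes on days 3, 7 and 10. The log2 differences of Erbb2 were -1.37 ± 0.43 (adjusted p = 0.0203), -1.48 ± 0.43 (adjusted p = 0.0144) and -1.47 ± 0.43 (adjusted p = 0.0148). Adalimumab skin held 56.1, 63.3 and 89.2 CPM on day 0, and the wounds held 9.15, 35.4 and 29.6 CPM on day 3, 13.7, 25.6 and 31.6 CPM on day 7, and 37.8 and 45.4 CPM on day 10. Again all wound libraries lay under day 0, where 18.4%, 25.1% and 32.8% of all genes did on days 3, 7 and 10, with Erbb2 differences of -1.49 ± 0.43 (adjusted p = 0.0206), -1.55 ± 0.43 (adjusted p = 0.0119) and, without passing, -0.74 ± 0.48 (adjusted p = 0.308). Within mice, Erbb2 was lower on day 3 than on day 0 in 3 of 3 mice of each arm, by 1.87 to 4.17 times in control and 1.79 to 6.13 times with adalimumab. Several of these Erbb2 calls ended when a library was left out, with the direction kept. On control day 3 this held for day 0 replicate 2 (-1.21, adjusted p = 0.0603), day 3 replicate 1 (-1.20, adjusted p = 0.0906) and day 3 replicate 3 (-1.13, adjusted p = 0.0941). It held on control day 7 for replicate 3 (-1.37, adjusted p = 0.058), and on control day 10 for replicates 1 and 2 (adjusted p = 0.0545 and 0.0559). In the adalimumab arm the day 3 call of Erbb2 ended without day 0 replicate 3 (-1.27, adjusted p = 0.0796) or day 3 replicate 1 (-1.05, adjusted p = 0.0699), and with the mouse as a block (-1.62, adjusted p = 0.0958). The day 7 call ended without day 0 replicate 3 (-1.23, adjusted p = 0.0639) or day 7 replicate 1 (-1.18, adjusted p = 0.0866). Without both hair-rich libraries, which left a single day 0 library in that arm, Erbb2 differed by -1.14 and -1.16 on days 3 and 7.

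Erbb3, which binds neuregulins and signals mainly as a partner of ERBB2, moved alongside. Control skin held 94.0, 45.1 and 79.2 CPM on day 0, and control wounds held 23.5, 58.8 and 13.2 CPM on day 3, 22.6, 22.7 and 14.9 CPM on day 7, and 21.7, 12.6 and 34.6 CPM on day 10. Days 7 and 10 lay wholly under day 0, as did 26.6% and 27.5% of all genes, and day 3 overlapped it through replicate 2. The difference of Erbb3 was -1.19 ± 0.63 on day 3 (adjusted p = 0.152), -1.86 ± 0.64 on day 7 (adjusted p = 0.0337) and -1.66 ± 0.64 on day 10 (adjusted p = 0.0516). The day 7 call ended without any of 5 libraries, control day 0 replicate 1 or 3 or control day 7 replicate 1, 2 or 3 (-1.95 to -1.59, adjusted p = 0.0611 to 0.113). Conversely, Erbb3 passed on day 3 without control day 3 replicate 2 (-1.99, adjusted p = 0.0318) and on day 10 without control day 0 replicate 2 (-1.87, adjusted p = 0.0482). Adalimumab held 65.3, 83.6 and 115 CPM of Erbb3 on day 0, 12.6, 87.0 and 53.9 CPM on day 3, 10.6, 39.4 and 48.1 CPM on day 7, and 58.6 and 65.9 CPM on day 10. No difference of Erbb3 from day 0 passed in that arm (-0.78 ± 0.63, -1.43 ± 0.63 and -0.50 ± 0.70, adjusted p = 0.399, 0.092 and 0.665).

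**Figure D3:**
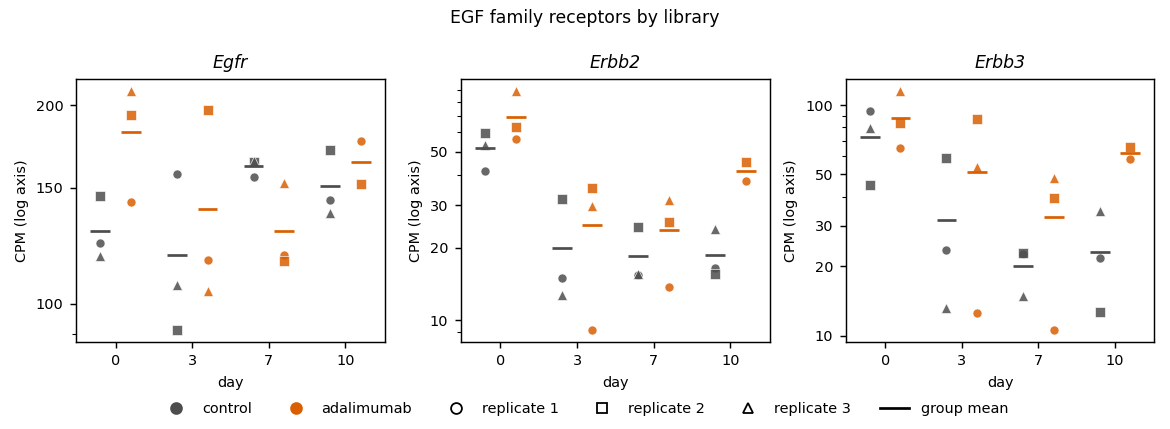
CPM of Egfr, Erbb2 and Erbb3 in each library on a log axis, by day and arm; points are libraries, shapes are replicates and bars are group means. Egfr stays between 91.3 and 210 CPM, while Erbb2 in all wounds of the control arm lies at or under 31.9 CPM, against 41.5 CPM or more in control skin.

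Members differed in which markers of the epidermis and of other tissue their levels followed. Over the 23 libraries, which share groups and tissue makeup, Erbb2 and Erbb3 levels had a Pearson correlation of 0.88 and 0.87 with the basal keratinocyte score, the mean log2 CPM of its 6 genes relative to all libraries. Epgn had 0.81, Tgfa 0.80 and Btc 0.52 with that score, while Egfr had 0.15, Ereg 0.13, Areg 0.09 and Hbegf 0.06. Hbegf and the neutrophil score had a correlation of 0.74. The order was another with the score of wound-edge keratinocytes, which had correlations of 0.61 with Hbegf, 0.61 with Tgfa, 0.49 with Areg and 0.46 with Ereg, against 0.24 with Erbb3, 0.23 with Erbb2 and 0.06 with Btc. Btc correlated most with the Schwann cell score (0.77), then with the suprabasal (0.66) and adipocyte (0.64) scores. Egfr correlated most with the growing hair follicle score (0.52), which had correlations of 0.60 with Erbb2, 0.57 with Tgfa, 0.52 with Btc and 0.51 with Erbb3. The 6 basal keratinocyte genes summed to 5714 to 7597 CPM in control skin on day 0 and to 492 to 5360, 647 to 1423 and 729 to 1401 CPM in control wounds on days 3, 7 and 10. With adalimumab they summed to 3712 to 9784 CPM on day 0 and 196 to 5155, 450 to 4152 and 3671 to 4599 CPM in the wounds. Of the 6, 2 fell on control day 3, 4 on day 7 and 4 on day 10. The 5 fibroblast markers, such as Col1a1, rose on all 3 control days, from 949 to 3897 CPM in skin to 36133 to 59262 CPM on day 7. Schwann cell markers summed to 139 to 154 CPM in control skin and 37.4 to 70.7, 23.8 to 54.8 and 38.6 to 56.5 CPM in control wounds. Suprabasal markers went from 1571 to 4884 CPM in control skin to 48.7 to 595, 282 to 397 and 473 to 704 CPM in control wounds. Adipocyte markers summed to 1767 to 4040 CPM in control skin and at most 481 CPM in control wounds. Skeletal muscle markers summed to 7007 to 23723 CPM in control skin and 138 to 586 CPM on control day 3, with 4 of 4 passing as lower. In bulk tissue, fewer cells of a type and less RNA per cell cannot be told apart, and the part of tissue makeup in the falls of Btc, Erbb2 and Erbb3 was not tested.

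**Figure D4:**
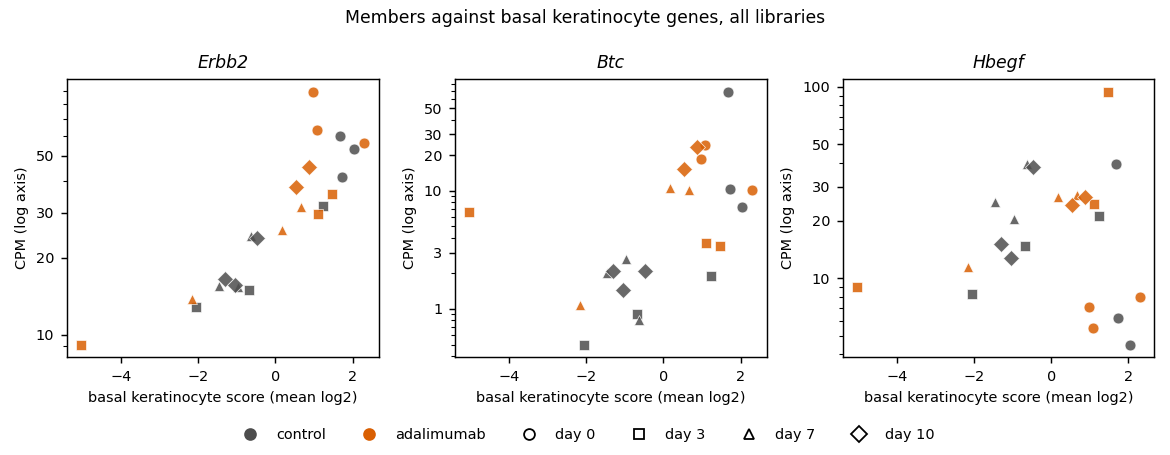
CPM (log axis) of Erbb2, Btc and Hbegf in each of the 23 libraries against the basal keratinocyte score of the same library (mean log2), with arms by colour and days by shape. Erbb2 climbs with the score (correlation 0.88), Btc less closely (0.52) and Hbegf hardly at all (0.06); the lowest score, -5.0, is adalimumab day 3 replicate 1.

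The arms were compared on each day, where day 0 skin may have been taken before the first dose of adalimumab. No member passed on day 0, 3, 7 or 10 in edgeR, where 0.269%, 0%, 0% and 0% of all genes did. At an unadjusted p under 0.05 there were 1, 2, 1 and 3 of 9 members, against 13.3%, 17%, 4.09% and 14.1% of all genes. DESeq2 called 0 members on days 0, 3 and 7 and 1 on day 10, against 702, 846, 6 and 413 of 23083 genes. On day 3, all 9 members were higher with adalimumab, with a median log2 difference of 1.53 against 0.03 over all genes. Those of Ereg (3.22 ± 1.42, adjusted p = 0.266), Areg (2.32 ± 1.45, adjusted p = 0.425), Btc (2.03 ± 0.83, adjusted p = 0.236), Tgfa (1.84 ± 0.92, adjusted p = 0.319) and Hbegf (1.53 ± 0.78, adjusted p = 0.328) were the largest. Adalimumab day 3 replicate 2 carried most of this: without it the difference was -0.31 for Ereg, 0.31 for Areg, 0.18 for Hbegf and 0.65 for Tgfa. Btc did not rest on that library, with differences of 1.64 to 2.68 whichever library was left out. Without adalimumab day 3 replicate 1, 0 of 9 members and 0 of all 23025 genes tested passed. Differences of the members then ran from 0.33 for Egfr to 3.75 for Ereg. Markers of other cells also differed on day 3, none past the threshold. Higher were 5 of 5 neutrophil genes (median 2.87), 4 of 4 wound-edge keratinocyte genes (2.10) and 4 of 4 endothelial genes (1.68). So were 4 of 4 adipocyte (2.85), 4 of 4 skeletal muscle (2.91) and 6 of 6 hair follicle genes (4.67). Also higher were 6 of 6 basal keratinocyte (0.80), 5 of 6 suprabasal (0.79), 5 of 5 melanocyte (1.53) and 5 of 5 Schwann cell genes (0.48). The remaining lists did not follow: 0 of 5 fibroblast (-0.73), 0 of 5 proliferation (-1.01) and 2 of 4 macrophage genes (-0.23) were higher. Adipocyte genes stood out in adalimumab day 3 replicate 1, at 3414 CPM against 280 and 274 CPM in replicates 2 and 3. Hair follicle genes stood out in replicate 3, at 87.4 CPM against 1.49 and 8.26 CPM. The part of these markers in the day 3 differences was not tested. All 3 adalimumab day 3 libraries lay above control for Btc, as did 6.6% of all genes. On day 0 the members differed in both directions, from -1.29 ± 0.78 for Hbegf (adjusted p = 0.507) to 1.11 ± 0.90 for Tgfa (adjusted p = 0.648). Both ends rested on a single library: Hbegf differed by 0.32 without control day 0 replicate 2, and Tgfa by 0.02 without the hair-rich adalimumab day 0 replicate 3. On day 7 Btc differed by 1.99 ± 0.82 and Egfr by -0.32 ± 0.23 (adjusted p = 1 for both).

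On day 10, Btc, Erbb2, Erbb3 and Tgfa were each higher in both adalimumab libraries than in all 3 control libraries, as were 23.1% of all genes. Btc stood at 15.3 and 23.5 CPM against 1.44 to 2.11 CPM (log2 difference 3.36 ± 0.90, adjusted p = 0.198). Erbb2 stood at 37.8 and 45.4 CPM against 15.6 to 23.9 CPM (1.16 ± 0.47, adjusted p = 0.286). Erbb3 stood at 58.6 and 65.9 CPM against 12.6 to 34.6 CPM (1.44 ± 0.69, adjusted p = 0.355), and Tgfa at 33.3 and 35.8 CPM against 3.87 to 12.6 CPM (2.21 ± 0.99, adjusted p = 0.334). These 4 therefore did not pass over all genes. The Btc difference did pass in DESeq2 (3.38, adjusted p = 0.0162) and in a fit of the compared groups alone (3.40, adjusted p = 0.00156). In that fit Tgfa (2.24, adjusted p = 0.0263) and Erbb2 (1.19, adjusted p = 0.0209) passed as well. These calls stand against 413 of 23083 genes called in DESeq2 and 1831 of 20033 in the fit of the compared groups. Keratinocyte transcripts moved with them: basal genes summed to 3671 and 4599 CPM with adalimumab against 729 to 1401 CPM, wound-edge genes to 4663 and 7188 CPM against 436 to 1372 CPM, and suprabasal genes to 11148 and 14710 CPM against 473 to 704 CPM. Markers of the growing hair follicle summed to 87.8 and 521 CPM against 12.4 to 23.03 CPM, of melanocytes to 17.7 and 42.9 CPM against 3.19 to 10.0 CPM, and of Schwann cells to 75.4 and 106 CPM against 38.6 to 56.5 CPM. Their part in the differences was not tested.

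**Figure D5:**
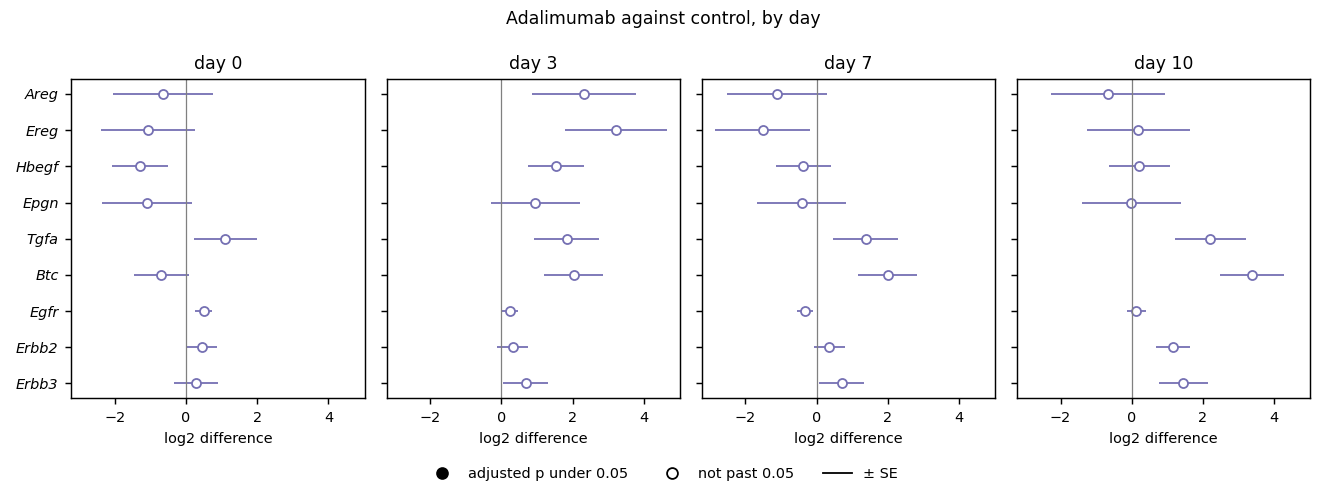
Log2 differences of the 9 members between adalimumab and control, with SE, on days 0, 3, 7 and 10; open circles mark differences that did not pass, which is all of them. All 9 lie above 0 on day 3, and Btc on day 10 is the highest at 3.36.

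Whether the change from day 0 differed between arms was tested as an interaction. No member passed on day 3, 7 or 10 in edgeR, where 1.81%, 0% and 0% of all genes did. Unadjusted p-values under 0.05 were found for 3, 2 and 1 of 9 members, against 20.5%, 7.47% and 13.4% of all genes. DESeq2 called 0, 0 and 1, against 1756, 52 and 392 of 23083 genes. The change of Btc lay higher with adalimumab by 2.72 ± 1.13 on day 3 (adjusted p = 0.187) and 2.69 ± 1.13 on day 7 (adjusted p = 0.608). On day 10 it lay higher by 4.06 ± 1.19 (adjusted p = 0.182, and in DESeq2 4.16, adjusted p = 0.0285), with a change of 0.13 against -3.93 in control. Without control day 0 replicate 2 the interaction values of Btc were 1.04, 1.03 and 2.40, and without both hair-rich libraries 3.62, 3.59 and 4.97. On day 3, Hbegf differed by 2.83 ± 1.10 (adjusted p = 0.161) and Ereg by 4.28 ± 1.93 (adjusted p = 0.221), and on day 7, Egfr by -0.82 ± 0.33 (adjusted p = 0.59). The day 3 value was 1.20 for Hbegf without control day 0 replicate 2 and 0.75 for Ereg without adalimumab day 3 replicate 2. Without adalimumab day 3 replicate 1, low in keratinocyte transcripts, the day 3 values were 3.34 for Hbegf, 4.86 for Ereg and 2.38 for Btc (adjusted p = 0.123, 0.198 and 0.31). Without both hair-rich libraries they were 2.67 for Hbegf and 5.38 for Ereg, and the day 7 value of Egfr was -0.40. The rise of Hbegf from day 0 to day 3 passed with adalimumab and not in control. The difference between arms in this change was not past the threshold.

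The other genes of the pathway were counted from 5 lists. Of the remaining family members, Egf, Nrg2, Nrg4 and Erbb4 were tested, and all 4 fell on control days 3, 7 and 10 (median log2 difference -2.75, -2.86 and -2.95). On control day 3, Egf (-3.32 ± 0.55, adjusted p = 0.000277) and Erbb4, the fourth receptor of the family (-6.81 ± 1.52, adjusted p = 0.00509), were among them. With adalimumab, 1, 4 and 3 of the 4 fell on days 3, 7 and 10, the single gene on day 3 being Nrg2 (-3.43 ± 0.46, adjusted p = 7e-05). Of 6 genes for shedding of ligands, 4 rose and 1 fell on control days 3 and 7, 2 rose and 2 fell on control day 10, and 4 rose and 0 fell on each adalimumab day. Adam12, a protease that can release HB-EGF, rose by 2.95 ± 0.44, 4.31 ± 0.47 and 4.78 ± 0.48 on control days 3, 7 and 10. Adam10, which sheds EGF and betacellulin, rose by 1.46 ± 0.19 on control day 3 (adjusted p = 4.05e-05). Adam17, the main protease for Areg, Ereg, Hbegf and Tgfa, rose by 0.67 ± 0.17 there (adjusted p = 0.0067). Medians of this list were 0.96, 0.72 and 0.38 in control and 0.80, 0.73 and 0.83 with adalimumab.

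Of 14 adaptor and MAP kinase genes, 4 rose and 0 fell on control day 3, 3 and 3 on day 7 and 2 and 2 on day 10. With adalimumab 3 rose and 2 fell on day 3, 2 and 5 on day 7 and 0 and 1 on day 10. Map2k1 rose on adalimumab day 3 (1.21) and Hras fell on adalimumab day 7 (-1.27). Of 12 feedback inhibitors, 1 rose and 4 fell on control day 3, 2 and 3 on day 7 and 1 and 5 on day 10. With adalimumab 2 rose and 2 fell on day 3, 0 and 5 on day 7 and 0 and 2 on day 10. Spred1, which restrains RAS signalling, rose on control day 3 (1.56 ± 0.23, adjusted p = 0.000125), while Spry1 fell (-2.40 ± 0.48). Lrig1, which promotes degradation of EGFR, fell on adalimumab day 7 (-1.71, adjusted p = 0.000425). Of 9 genes induced by EGF signalling, 1 rose and 1 fell on control day 3, and 1 rose and 0 fell on each of control days 7 and 10. With adalimumab, 2 rose and 1 fell on day 3, 1 and 1 on day 7 and 1 and 0 on day 10. Plaur, the urokinase receptor, passed on every day in both arms. It rose by 2.70 on control day 3 and 4.74 on adalimumab day 3 (adjusted p = 0.000149), where Ccnd1 fell (-1.56). Between arms, Ccnd1 differed by 1.59 ± 0.53 on day 0 (adjusted p = 0.168) and -0.12 ± 0.52 on day 3 (adjusted p = 0.936). The part of the hair-rich adalimumab day 0 libraries in its fall was not tested. The immediate early gene Egr1 fell on control day 3 (-2.42). No gene of these 5 lists passed between arms or in an interaction in edgeR. DESeq2 called 2, 2 and 5 on day 0, on day 3 and in the day 3 interaction, against 702, 846 and 1756 of 23083 genes. Summed over the lists, some counts of pathway genes that fell or rose from day 0 moved by over 1.5 times without a library. On control day 3, 10 fell, and 6 without day 3 replicate 1 or 3. On control day 7, 10 rose and 11 fell, against 16 and 7 without day 0 replicate 2, and 6 fell without day 7 replicate 3. On control day 10, 13 fell, and 8 without day 0 replicate 2, day 10 replicate 1 or day 10 replicate 3. With adalimumab, 6 fell on day 3 and 3 without day 0 replicate 3, and 15 fell on day 7 and 7 without day 7 replicate 1. On adalimumab day 10, 5 rose and 6 fell, and leaving out a replicate there left a single library, so no count is given. Calls over all genes, in either direction, moved in the other fits too. They went from 7986 to 5115 and 5506 on control day 3, and from 7699 to 6757 and 5160 on control day 7. On control day 10 they went from 7951 to 6941, 5866 and 6155, in the order given. With adalimumab they went from 4956 to 2919 on day 3 and from 7500 to 4730 on day 7.

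Covariation among the members is described over the 23 libraries, which share groups and tissue makeup, with no test. Areg, Ereg and Hbegf varied together, with Pearson correlations of 0.73 to 0.81. Erbb2 and Erbb3 varied together at 0.91, and Tgfa with them at 0.85 and 0.82. Hbegf and Erbb2 had a correlation of -0.10. Among 12875 genes searched, those most like Areg were Dusp5 (0.91) and Midn (0.83), followed by Hbegf itself (0.80). Closest to Ereg were Fosl2 (0.88), Il1a (0.84) and Dusp5 (0.83), and closest to Hbegf were Rnf19b (0.89), Cdk5r1 (0.88) and Slc10a6 (0.87). For Tgfa they were Sdc1 (0.95), Hip1r (0.94) and Rhov (0.93), for Epgn Bok (0.85), Mark3 (0.84) and Fgfbp1 (0.84), and for Btc Alox12 (0.92), Bicdl1 (0.92) and Abhd6 (0.92). Erbb2 was most like Ppp1r13l (0.98), Emp2 (0.98) and Casz1 (0.98), and Erbb3 most like Mboat1 (0.94), Fgfr3 (0.93) and Bcl11a (0.93). The likeness of Egfr to any gene was lower, with Ehmt1 (0.76), Trim33 (0.76) and Setd5 (0.76) closest.

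Ordered by median level per length over all libraries, Egfr (12.9 CPM per kb) was followed by Epgn (9.08), Erbb3 (7.49), Erbb2 (5.69), Hbegf (4.21), Areg (3.00), Ereg (2.36), Tgfa (1.95) and Btc (0.806). Ranges of neighbours in this order overlapped, from 0.449 to 135 CPM per kb for Epgn and 1.76 to 19.2 for Erbb3, for example. Exon lengths were those of GENCODE M21, an annotation of GRCm38.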

How the data were processed

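RNA from mouse skin and wounds was sequenced as 50 bp single reads from stranded total RNA libraries, per the labels' protocols. The submitters' processing notes name STAR (version not given) and GRCm39. The counter, its annotation and its strand setting were not given in these sources, so reads of antisense or overlapping genes cannot be told apart. The authors deposited raw counts per gene.

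Counts were scaled by TMM and tested with edgeR 4.0.16 under R 4.3.3. Genes were kept by filterByExpr (count of 10, total of 15), and the quasi-likelihood fit and test (glmQLFit, glmQLFTest) used a mean for each group over all 23 libraries. Benjamini-Hochberg adjustment ran over 23083 genes, with a threshold of 0.05. CPM are counts scaled to TMM-adjusted library size, and SE is the log2 difference divided by the root of F. The common dispersion was 0.181. Replicates are separately numbered mice, and p-values measure the spread between them. The design text has fewer time points than the labels, whose 4 days were all used.

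Same-numbered libraries of days 0 and 3 are the same mice by the column names, which pairs them by design; their deviations correlated from -0.08 to -0.04 in control and from -0.11 to 0.26 in adalimumab. The test was checked on simulated data. Members and lists were chosen with earlier results of these data known. All members were named, together with up to 3 genes past the threshold from each pathway list by adjusted p (some are not reported here), and the 3 genes most like each member (log2 CPM, prior count 2, Pearson). Alternatives were DESeq2 1.42.0, RLE factors, other filters, fits of the compared groups alone, a replicate block and leaving out libraries.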

Additional observations from a re-analysis of the deposited data

How the results depend on the processing

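RLE size factors, no filter and a stricter filter on low counts changed no count of members called. Members called against day 0 were also counted with 1 library left out. They were 1 to 3 on control day 3 (2 with all libraries), 1 to 4 on control day 7 (3) and 1 to 4 on control day 10 (2). With adalimumab they were 0 to 2 on day 3 (2) and 0 to 1 on day 7 (1). The other comparisons stayed at 0 where each group kept at least 2 libraries. Over all genes, the same fits called 5115 to 8834 (7986 with all libraries), 5160 to 7359 (7699) and 5857 to 6941 (7951) on control days 3, 7 and 10. On adalimumab days 3 and 7 the calls over all genes were 2919 to 4692 (4956) and 4730 to 7604 (7500). DESeq2 called 4 members on control day 10, 1 between arms on day 10 and 1 in the day 10 interaction, against 9116, 413 and 392 of 23083 genes. Fits of the compared groups alone called 1, 2 and 2 on adalimumab days 3, 7 and 10 and 3 between arms on day 10, with 6 pathway genes there. In that order, those fits called 1541 of 19917, 4612 of 19916, 4581 of 20822 and 1831 of 20033 genes. Without both hair-rich day 0 libraries a single adalimumab day 0 library was left, so no count of calls is given for that fit. With the mouse as a block, adalimumab day 3 gave 0 and control day 3 kept its count of 2. Those 2 fits called 975 of 19917 and 4049 of 19415 genes. Elsewhere the numbers pair the libraries by nothing but the number (correlations -0.35 to 0.21; every library correlated best with its own number in control day 10 against day 0 alone). With a replicate block there, 7 members passed between arms on day 10, 4 on control day 10, 2 on adalimumab day 7 and 3 on adalimumab day 10, where the same fits called 1973 of 20033, 8889 of 19675, 3499 of 19916 and 2504 of 20822 genes. That block turned 2 differences: Epgn between arms on day 10 (1.55, adjusted p = 0.0162) and Tgfa on adalimumab day 10 (1.06, adjusted p = 0.0486). It also ended the control day 7 call of Btc (-3.11, adjusted p = 0.0881). Of the counts of pathway genes under alternatives, 38 moved by over 1.5 times and 214 did not; of the values of single members, 31 gained and 27 lost the threshold and 342 kept their call. The cause of these changes was not tested. With 2 or 3 libraries per group and a biological coefficient of variation of 42.5%, differences of Areg, Ereg and Epgn had SE above 1, so moderate changes of these ligands were not detectable.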
